A study of Mus musculus with 16 samples.

Results

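The genes followed here are the nuclear genes of oxidative phosphorylation, measured in splenic B cells of mice that ate 1 of 4 diets. They were taken by symbol from the deposited count table of 39179 genes. Symbols starting with Ndufa, Ndufb, Ndufc, Ndufs, Ndufv, Uqcr, Cox4, Cox5, Cox6, Cox7, Cox8 or Atp5 were kept, with Sdha, Sdhb, Sdhc, Sdhd, Cyc1 and Cycs. The Ndufaf assembly factors and symbols with -ps were left out. This gave 88 genes, and 82 of them passed a filter that asks for about 10 reads in at least 4 libraries, as 15021 of all genes did. Those tested were 37 of 38 genes of complex I, 4 of 4 of complex II, 9 of 9 of complex III, 14 of 18 of complex IV, 17 of 18 of complex V and Cycs.

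All mice were NOD.LT, a line of mice prone to autoimmune diabetes, aged 15 weeks and fed their diet for 5 weeks. NP is the comparison diet, titled GD in the labels and apparently the diet a protocol calls Gordons. HAMS is high-amylose maize starch, HAMSA the acetylated and HAMSB the butyrylated form of that starch, names the labels do not spell out. Each diet had 4 libraries of poly(A) RNA, from B cells left over after antibodies and columns removed other spleen cells. The labels number the libraries NP 1, 3, 4 and 5, HAMS 1, 4, 5 and 6, HAMSA 1, 2, 3 and 6, and HAMSB 1, 2, 5 and 6, but do not say which animals they are, so p-values measure the spread between these libraries.

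Oxidative phosphorylation makes most of the ATP of a resting cell in the inner mitochondrial membrane. Complex I takes electrons from NADH and complex II from succinate. Complex III passes them to cytochrome c, and complex IV hands them to oxygen. Complexes I, III and IV pump protons, and complex V, the ATP synthase, lets the protons flow back to make ATP. All subunits of complex II and most of the others are encoded in the nucleus, and a small set in complexes I, III, IV and V comes from the mitochondrial genome. Resting B cells make ATP largely this way, and activated B cells enlarge both this pathway and glycolysis.

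No gene of the set passed edgeR's quasi-likelihood test for a difference between any 2 diets, with all 16 libraries fitted together and TMM scaling. DESeq2 on the same libraries called 6 in HAMSA against HAMSB, where it called 600 of all 15021 genes. It called 4 in HAMSA against NP (1295 of all genes) and 1 in HAMS against NP (1264). Without TMM scaling, edgeR called 1 in HAMS against NP (798 of all genes). The genes nevertheless lay on the same side in most comparisons. Of the 82 tested, 77 were higher in HAMSA than in HAMSB, 76 higher in HAMS than in NP and 76 higher in HAMSA than in NP, while 76 were lower in HAMSB than in HAMS. Levels in the 4 NP libraries were close to each other, and those in the other diets were spread widely. HAMS 1, HAMS 4, HAMSA 2 and HAMSA 3 were high for most genes, and HAMSB 5 was low.

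Depth ranged from 15053965 to 46206200 counts per library, with HAMSA the shallowest diet. The 14 B cell markers summed to between 26369 and 37863 counts per 1e6 counts (CPM) in every library, with none at 0. Of these 1 was called, Cd22, lower in HAMS and in HAMSA than in NP. Its log2 fold changes were −0.46 ± 0.10 and −0.47 ± 0.10 (SE, edgeR's adjusted p = 0.0181 and 0.0387). Of all genes 4.33% and 1.41% were called in these comparisons. The 16 T cell markers summed to 182 to 554 CPM and the 12 NK cell markers to 16.8 to 105 CPM. The 15 erythroid markers in the table ranged from 41.3 CPM in HAMS 5 to 6547 CPM in HAMSA 2. CPM were taken over the library total after TMM scaling, whose factors lay between 0.944 and 1.035. In RNA from a whole cell preparation, fewer cells of a type and less RNA per cell cannot be told apart.

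Levels between genes were compared as CPM per kilobase of exon, averaged over the 16 libraries. The highest was Cox8a at 199, a small subunit of complex IV, followed by Atp5a1 at 176, the alpha subunit of the catalytic head of ATP synthase. Next came 2 more complex IV subunits, Cox6a1 at 150 and Cox4i1 at 138. Atp5b, the catalytic beta subunit, stood at 135, and Uqcrh, the hinge subunit of complex III, at 133. In complex I the highest per length were Ndufb11 at 106 and Ndufa2 at 89.6. In complex III Uqcr10 followed Uqcrh at 68.7 CPM per kilobase.

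**Figure D1:**
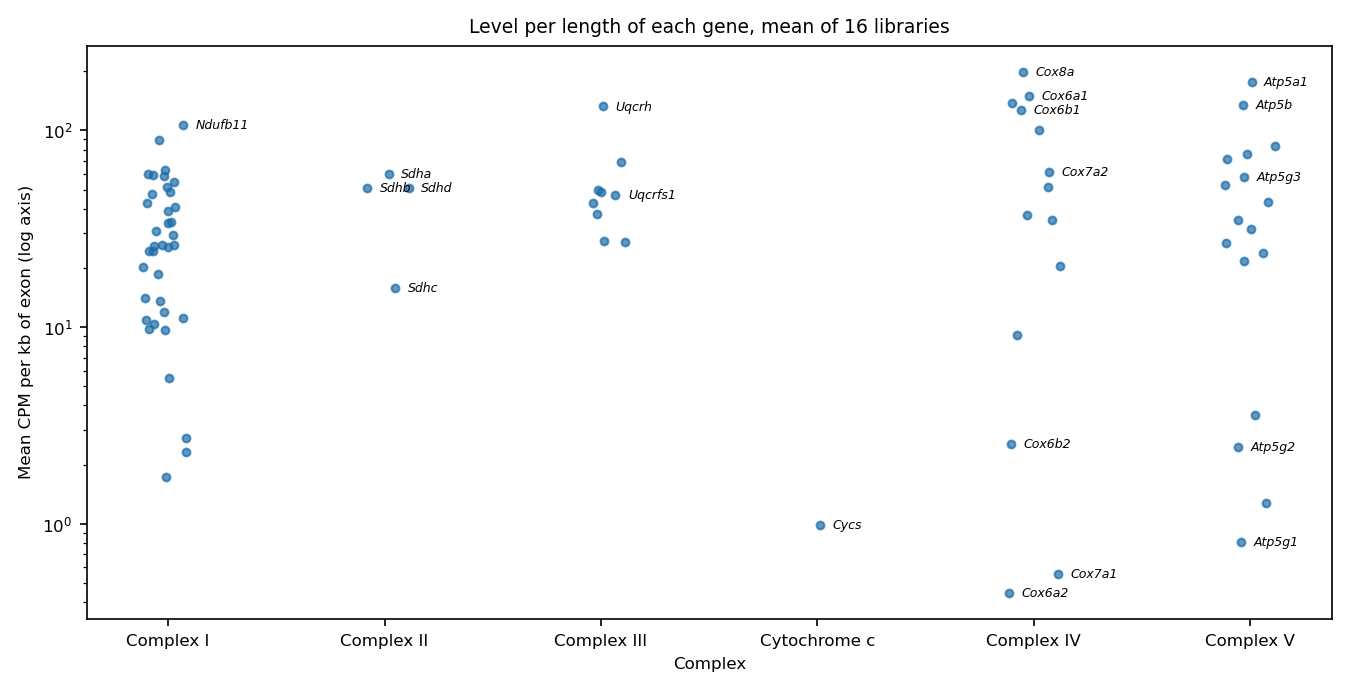
Mean level of each of the 82 tested genes over 16 libraries, in CPM per kilobase of exon on a log axis, grouped by complex. Each point is a gene, and the lowest tested points are Cox6a2 at 0.445 and Cox7a1 at 0.556, while Cox8a stands highest at 199.

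Subunits that exist as tissue forms were nearly all represented by the general form. Cox4i1 stood at 138 CPM per kilobase, and Cox4i2, its lung and oxygen-dependent form, had 4 counts in all libraries together. Cox6a1 stood at 150 and Cox6a2, the heart and muscle form, at 0.445. Cox6b1 stood at 127 and the testis form Cox6b2 at 2.54, and Cox7a2 at 61.8 against 0.556 for the muscle form Cox7a1. Cox8b, Cox8c and Cox7b2 had no count in any library, where Cox8a stood at 199 and Cox7b at 51.8. The other genes below the count filter were Ndufa4l2 with 65 counts in all and Atp5l2, a processed pseudogene, with 71.

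Among the 3 genes for the c subunit of ATP synthase, which encode the same mature protein, Atp5g3 stood at 58.0 CPM per kilobase, Atp5g2 at 2.47 and Atp5g1 at 0.813. Cycs, the electron carrier between complexes III and IV, stood at 0.986. These low values are uncertain. The length used is that of all exons of a gene together, 4912 bases for Atp5g1, which lowers its value per kilobase. In plain CPM Atp5g3, Atp5g2 and Atp5g1 had means of 127, 4.13 and 3.99. Reads that map to several places were not counted, and 38.3% of the 50-base stretches of Atp5g2 and 26.1% of those of Cycs occur in another gene as well. Of the tested genes the share was also over 20% for Atp5o (41.6%), Ndufb6 (31.6%), Ndufa13 (28.5%), Uqcrb (25.5%), Cox7c (22.1%) and Ndufs5 (21.7%). For Atp5g1 it was 11.1%. Of the 88 genes 36 had no such stretch, and for 38 the other genes included pseudogenes.

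Promoters were read for the 71 genes found in a RefSeq table (GRCm38.p6) of 250 bases before to 50 bases after each start site. They were searched on both strands for letters of 4 factors known from respiratory genes: GCGCATGC or GCGCACGC for NRF1 (matches may overlap), CCGGAAG for the ETS family, AAGATGGC for YY1 and TGACGTCA for the cyclic AMP response element, CRE. NRF1 letters were in 15 of the 71 (21.1%) against 5.52% of 27025 promoters, and ETS letters in 15 (21.1%) against 9.12%. YY1 letters were in 10 (14.1%) against 2.88%, and CRE letters in 5 (7.04%) against 1.88%. The YY1 letters began after the start site, from base 23 to base 39, except in Atp5f1 (base -3). At least 1 of the 4 was in 36 (50.7%) against 17.3% of all promoters. Stretches of 30 bases are shown for 5 genes whose values are given below, in the direction of the gene, with the matched letters in capitals:
Cycs, NRF1 letters from base -60, chr6:50566611-50566640, minus strand: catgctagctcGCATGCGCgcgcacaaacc
Sdhb, NRF1 letters from base -54, chr4:140961206-140961235, plus strand: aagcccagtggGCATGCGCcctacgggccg
Sdhd, ETS letters from base -46, chr9:50603877-50603906, minus strand: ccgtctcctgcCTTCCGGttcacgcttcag
Uqcrfs1, CRE letters from base -29, chr13:30545327-30545356, minus strand: cggcgtcgcgcTGACGTCAcaaaccctgcg
Cox6a1, ETS letters from base -16, chr5:115348959-115348988, minus strand: cgtccccatttccgCTTCCGGcgcgccggt

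Not every gene that varied between libraries held any of these letters. The 120 bases before the start of 2 such genes are shown beside those of Ndufb2, whose promoter held the CRE letters in capitals:
Ndufb2, chr6:39592445-39592564, plus strand: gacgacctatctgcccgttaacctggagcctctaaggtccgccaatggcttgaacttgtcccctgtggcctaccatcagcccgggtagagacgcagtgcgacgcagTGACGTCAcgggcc
Ndufv2, chr17:66101560-66101679, minus strand: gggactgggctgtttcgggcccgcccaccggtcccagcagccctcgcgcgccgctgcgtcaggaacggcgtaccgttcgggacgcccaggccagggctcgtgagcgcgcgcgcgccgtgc
Cox5a, chr9:57521112-57521231, plus strand: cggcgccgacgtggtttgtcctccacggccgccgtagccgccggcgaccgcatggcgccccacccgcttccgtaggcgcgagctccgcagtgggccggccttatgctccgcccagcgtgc
Tested genes with a match and without one lay close in every comparison. In HAMSA against HAMSB the median log2 fold change was 0.40 over the 36 with a match and 0.42 over the 33 without, and in HAMS against NP 0.25 and 0.22.

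Summed over the 88 genes, NP 1, 3, 4 and 5 held 5556, 5540, 5542 and 6009 CPM. HAMS 1, 4, 5 and 6 held 7205, 7944, 5421 and 5648 CPM. HAMSA 1, 2, 3 and 6 held 6141, 8500, 7976 and 6004 CPM, and HAMSB 1, 2, 5 and 6 held 6184, 6638, 4205 and 5605 CPM. HAMSA had the highest mean, 7155 ± 1270 (SD, n = 4), and the 2 highest libraries. The means were 6555 ± 1219 in HAMS, 5658 ± 1057 in HAMSB and 5662 ± 232 in NP. The coefficient of variation in NP was 4.09%, and NP 5 lay just above HAMSA 6, so that no 2 diets were fully apart.

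**Figure D2:**
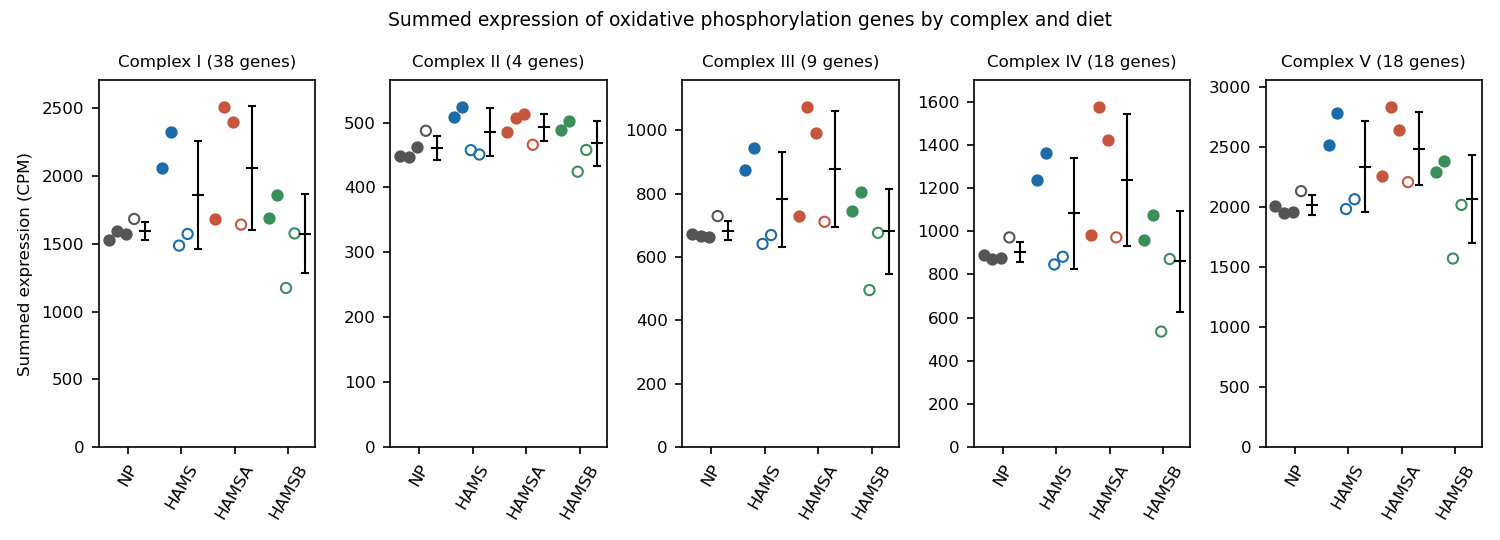
Summed CPM of each complex in each library, by diet. Filled points are libraries numbered 1 to 4, open points those numbered 5 and 6, and the bar beside them is the mean with its SD over 4 libraries. Complex II stays between 424 and 524 CPM, while complex IV runs from 535 CPM in HAMSB 5 to 1575 CPM in HAMSA 2.

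The complexes did not vary alike. Complex II, the smallest, ran from 424 CPM in HAMSB 5 to 524 CPM in HAMS 4, and complex IV from 535 CPM in HAMSB 5 to 1575 CPM in HAMSA 2. Complex II therefore made up 10.1% of the summed CPM in HAMSB 5 and 5.96% in HAMSA 2, and complex IV 12.7% and 18.5% in the same libraries. The share of complex I lay between 27.3% and 30.1% in every library, and that of complex III between 11.8% and 12.6%.

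Each gene was compared between diets with edgeR's quasi-likelihood test, with p-values adjusted over all 15021 genes by the Benjamini-Hochberg method and 0.05 as the threshold. The 6 comparisons share libraries, so they are not independent of each other, and the values are given side by side. By this test no gene of the set passed in any of them. Of all genes tested, 1.68% passed in HAMSB against HAMS, 0% in HAMSA against HAMS, 0.779% in HAMSA against HAMSB, 4.33% in HAMS against NP, 1.41% in HAMSA against NP and 0.0732% in HAMSB against NP. A test for any difference among the 4 diets called 3.78% of all genes and 0 of the 82.

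At an unadjusted p under 0.05 the 82 genes gave 34 in HAMSA against HAMSB and 28 in HAMSA against NP, all higher in HAMSA. Over all genes the shares were 19.4% and 25.1%. The other comparisons gave 10 of 82 in HAMSB against HAMS (14.1% of all genes), 1 in HAMSA against HAMS (11.7%), 4 in HAMS against NP (19.3%) and 1 in HAMSB against NP (6.89%). The any-diet test gave 14 of 82, against 22% of all genes. Only HAMSA against HAMSB and HAMSA against NP therefore had a larger share among these genes than among all genes.

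The median log2 fold change of the 82 genes was 0.39 in HAMSA against HAMSB, 0.36 in HAMSA against NP and 0.23 in HAMS against NP. It was 0.13 in HAMSA against HAMS, −0.29 in HAMSB against HAMS and −0.01 in HAMSB against NP. The median over all genes tested lay between −0.0040 and 0.0124 in each. The median SE of a member's fold change was 0.19.

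Complexes III and IV had the largest medians in HAMSA against HAMSB, 0.56 over 9 genes and 0.50 over 14, followed by complex I with 0.42 over 37. Complex V had 0.25 over 17 genes and complex II 0.11 over 4. In HAMSA against NP the medians were 0.44 for IV, 0.41 for III, 0.38 for I, 0.29 for V and 0.15 for II. In HAMSB against HAMS the medians were −0.35 for III, −0.31 for I, −0.29 for IV, −0.24 for V and −0.05 for II. Differences between complexes were not tested.

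**Figure D3:**
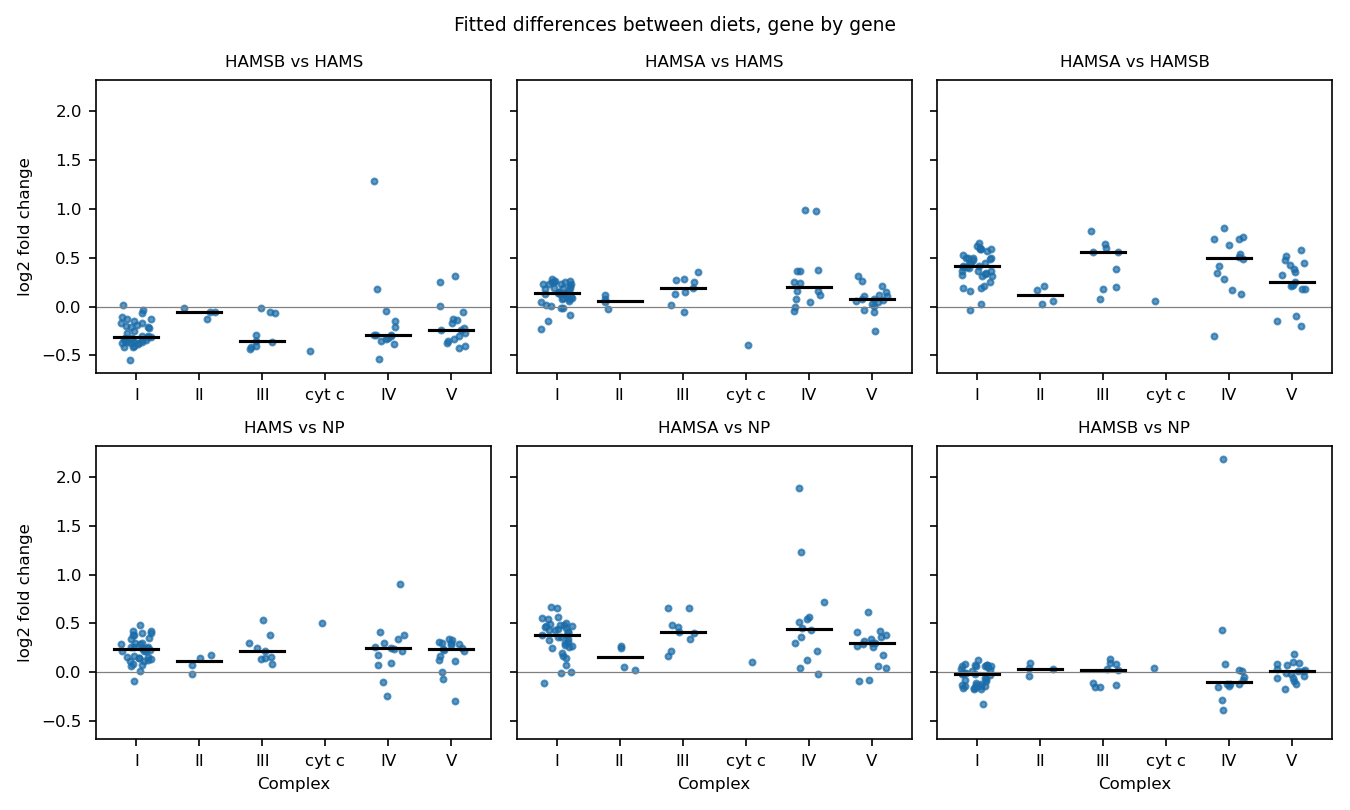
Fitted log2 fold change of each tested gene in the 6 comparisons of diets, by complex, with a black bar at the median of each complex. In HAMSA against HAMSB the points of complexes I, III and IV centre on 0.42, 0.56 and 0.50, and those of complex II on 0.11. No point passed the adjusted test.

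Groups whose libraries do not overlap were counted as a description. In HAMSA against NP all 4 HAMSA libraries lay above all 4 NP libraries for 13 of the 82 genes (7.72% of all genes) and below for none (8.67%). Among them were Ndufb5 and Ndufv2 of complex I, Sdhc of complex II, Uqcrb and Uqcrq of complex III, Cox5a, Cox6a1 and Cox6a2 of complex IV, and Atp5a1, Atp5b, Atp5d and Atp5h of complex V. In HAMS against NP it was 3 genes, Ndufa5, Ndufs3 and Uqcrb (6.06%), and none below (6.55%). The others gave 1 each above, Atp5sl in HAMSB against HAMS (3.19%), Cox5b in HAMSA against HAMSB (4.65%) and Cox6a2 in HAMSB against NP (2.21%), and none below (4.11%, 4.16% and 3.06%). HAMSA against HAMS gave none above (2.7%) or below (1.31%). Cox6a2 passed the count filter only through libraries of diets other than NP, so its place above NP is no support.

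**Figure D4:**
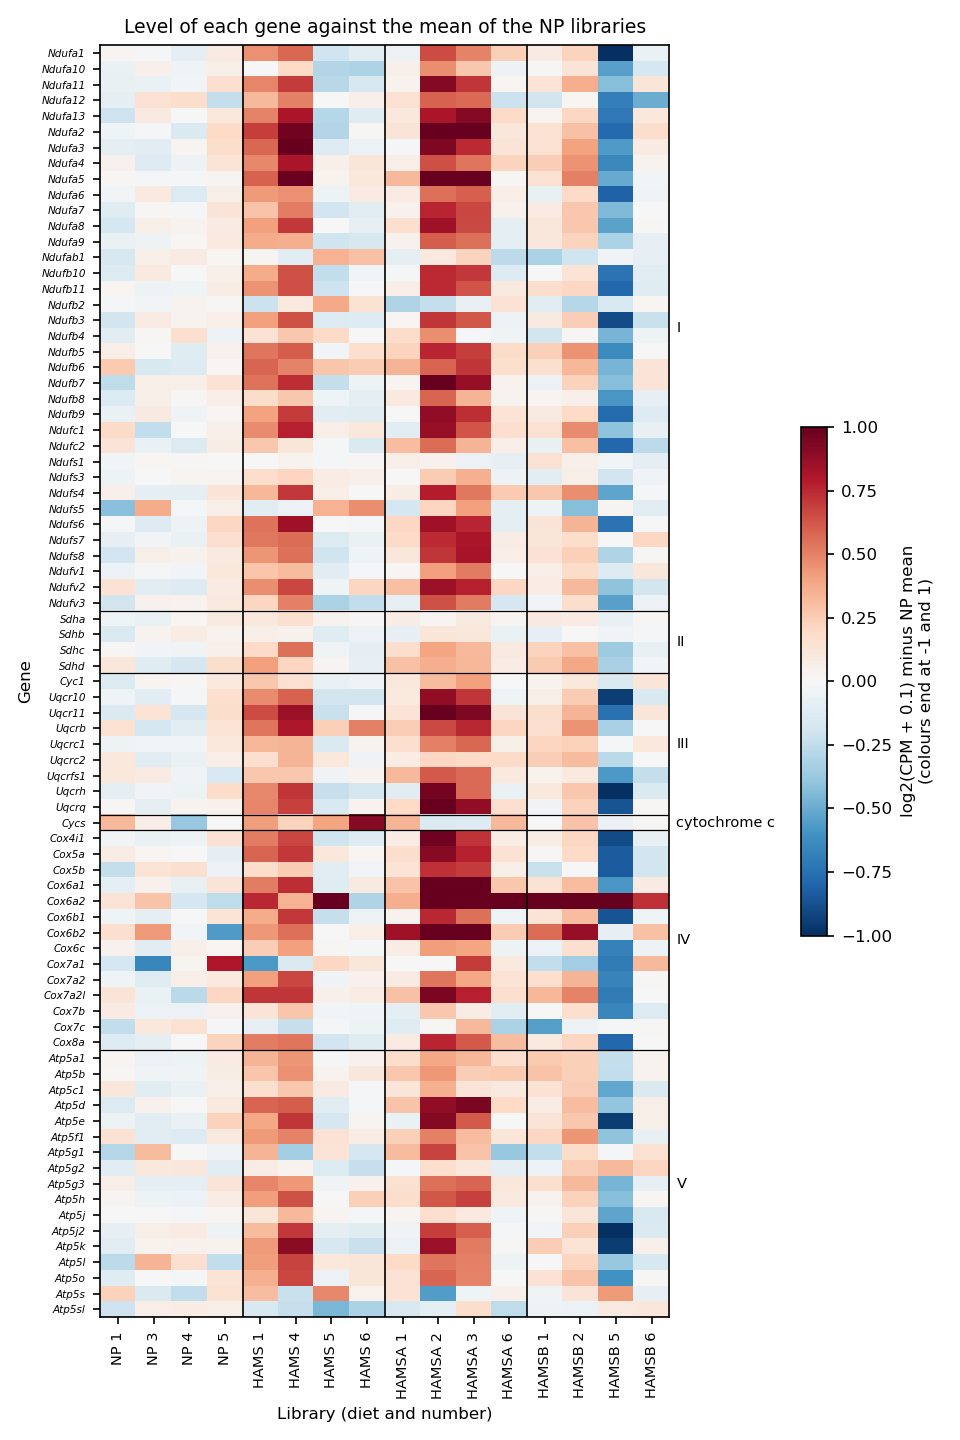
Level of tested genes (rows, grouped by complex) in the 16 libraries (columns), as log2(CPM + 0.1) minus the mean of the 4 NP libraries. Red is higher and blue lower than NP. The columns HAMS 1, HAMS 4, HAMSA 2 and HAMSA 3 are red for most genes, HAMSB 5 is blue, and Sdha, Sdhb and Ndufs1 stay pale across all columns.

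In complex I, Ndufv2 (chr17:66078638-66101559, minus strand, GRCm38), an iron-sulphur subunit of the arm that takes electrons from NADH, was measured at 52.5, 44.1, 43.4 and 50.3 CPM in NP 1, 3, 4 and 5 and at 65.6, 75.2, 46.0 and 55.1 in HAMS 1, 4, 5 and 6. It stood at 58.5, 86.5, 81.5 and 54.6 CPM in HAMSA 1, 2, 3 and 6 and at 50.005, 59.4, 35.8 and 41.7 in HAMSB 1, 2, 5 and 6. All HAMSA libraries lay above all NP libraries, with a log2 fold change of 0.56 ± 0.18 (SE, edgeR's adjusted p = 0.0955). Against HAMSB the fold change was 0.59 ± 0.18 (edgeR's adjusted p = 0.141), with overlap.

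Ndufa12, an accessory subunit near the NADH-oxidising arm, stood at 13.5, 15.9, 16.2 and 12.1 CPM in NP and at 17.99, 20.3, 14.3 and 14.8 in HAMS, in the same order of libraries. In HAMSA it stood at 15.9, 21.6, 21.2 and 12.3 CPM and in HAMSB at 12.6, 14.5, 8.89 and 10.1. Its lowest HAMS library overlapped the highest of HAMSB, and the log2 fold change of HAMSB against HAMS was −0.55 ± 0.19 (edgeR's adjusted p = 0.208). It was the lowest of the 82 in that comparison.

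Ndufb6, an accessory subunit whose level is uncertain because it shares sequence with Smim27, ran from 12.7 to 16.97 CPM in NP and from 15.8 to 23.3 in HAMSA, with overlap, a fold change of 0.46 ± 0.17 (edgeR's adjusted p = 0.123).

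The core subunits of complex I, which carry the electrons, varied to different degrees. Ndufs1, the largest iron-sulphur subunit, ran from 78.0 to 92.8 CPM over the 16 libraries, a ratio of 1.19. The ratio of highest to lowest library was 1.46 for Ndufs3, 1.57 for Ndufv1, 1.94 for Ndufs7 and 2.18 for Ndufs8, each highest in HAMSA 3. Their fold changes of HAMSA against HAMSB lay between 0.19 ± 0.13 for Ndufv1 and 0.43 ± 0.19 for Ndufs8 (edgeR's adjusted p = 0.384 and 0.242). A few accessory subunits did not follow the rest. Ndufab1, the mitochondrial acyl carrier protein, was highest in HAMS 5 at 48.1 CPM, and Ndufb2 was highest in the same library at 17.2 CPM against 13.04 to 13.6 in NP.

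In complex II, Sdha (chr13:74322254-74350280, minus strand), the flavoprotein that oxidises succinate and also serves the tricarboxylic acid cycle, stood at 235, 231, 245 and 257 CPM in NP, at 260, 270, 248 and 243 in HAMS, at 254, 247, 258 and 246 in HAMSA and at 257, 256, 230 and 244 in HAMSB. Its highest library was 1.18 times its lowest, the smallest ratio of the 82 genes. Its log2 fold changes lay between −0.05 and 0.08 with SEs of 0.07.

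Sdhb, the iron-sulphur subunit, ran from 104 to 124 CPM, a ratio of 1.20. The 2 membrane anchors varied more: Sdhc ran from 36.8 CPM in HAMSB 5 to 69.1 in HAMS 4, and Sdhd from 45.5 in HAMSB 5 to 75.7 in HAMS 1. Sdhc was the complex II gene whose HAMSA libraries (50.1 to 61.9 CPM) all lay above NP (45.9 to 48.8 CPM), with a fold change of 0.25 ± 0.15 (edgeR's adjusted p = 0.288).

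In complex III, Uqcrfs1 (chr13:30540308-30545362, minus strand), the Rieske iron-sulphur protein, stood at 63.4, 62.2, 57.5 and 52.8 CPM in NP and at 71.1, 70.7, 57.5 and 60.3 in HAMS. It stood at 73.7, 90.02, 87.1 and 62.9 CPM in HAMSA and at 60.2, 63.0, 39.4 and 49.98 in HAMSB. HAMSA 6 and HAMSB 2 overlapped by a small margin, and the fold change of HAMSA against HAMSB was 0.56 ± 0.14 (edgeR's adjusted p = 0.0843).

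Uqcrb, a ubiquinone-binding subunit, stood at 21.7, 17.3, 18.03 and 21.5 CPM in NP and at 28.4, 34.3, 22.99 and 27.7 in HAMS. It stood at 23.2, 30.9, 32.9 and 22.7 CPM in HAMSA and at 21.9, 26.6, 15.6 and 19.4 in HAMSB. It was above NP in all 4 HAMS and all 4 HAMSA libraries, with fold changes of 0.53 ± 0.17 and 0.48 ± 0.17 (edgeR's adjusted p = 0.0935 and 0.117). Its sequence is shared in part with 5 other genes, 4 of them pseudogenes, so its level is uncertain.

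The small subunits Uqcrh and Uqcrq were the most variable of the abundant genes. Uqcrh ran from 62.1 CPM in HAMSB 5 to 288 in HAMSA 2, a ratio of 4.64, and Uqcrq from 22.9 to 92.3 in the same libraries, a ratio of 4.03. Uqcrq was above NP (39.3 to 42.9 CPM) in every HAMSA library (47.0 to 92.3 CPM), with a fold change of 0.66 ± 0.25 (edgeR's adjusted p = 0.128). Cyc1, the cytochrome that feeds cytochrome c, had a ratio of 1.47 between its highest and lowest library, and Uqcrc1, a core protein of the matrix side, 1.65.

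Cycs (chr6:50562563-50566538, minus strand), which also acts in apoptosis, stood at 3.68, 3.06, 2.22 and 2.91 CPM in NP and at 3.94, 3.42, 3.89 and 5.59 in HAMS. In HAMSA it stood at 3.73, 2.66, 2.66 and 3.69 CPM and in HAMSB at 2.93, 3.58, 2.81 and 2.96. HAMSA 2 and 3, the highest libraries for most other genes, were among its lowest, and HAMS 6 was its highest. The fold change of HAMS against NP was 0.50 ± 0.20 (edgeR's adjusted p = 0.184), with overlap between HAMS 4 and NP 1.

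In complex IV, Cox5b (chr1:36691449-36693681, plus strand), a zinc-binding subunit on the matrix side, stood at 44.2, 57.4, 58.2 and 50.1 CPM in NP and at 58.9, 62.1, 48.3 and 51.1 in HAMS. It stood at 57.4, 86.6, 84.7 and 54.4 CPM in HAMSA and at 44.8, 52.4, 29.3 and 45.9 in HAMSB. Every HAMSA library lay above every HAMSB library, and the fold change of 0.71 ± 0.18 had the smallest adjusted p of the 82 genes in that comparison (edgeR's adjusted p = 0.0837). HAMS lay between them, with 0.36 ± 0.18 for HAMSA against HAMS (edgeR's adjusted p = 0.442).

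Cox4i1, the regulatory subunit that binds ATP, stood at 184, 178, 181 and 207 CPM in NP and at 267, 298, 163 and 172 in HAMS. It stood at 197, 367, 309 and 197 CPM in HAMSA and at 197, 216, 101 and 178 in HAMSB. HAMSA 1 and 6 were at the level of NP 5 and HAMSB 1, so the groups overlapped, and HAMSA against HAMSB gave 0.63 ± 0.25 (edgeR's adjusted p = 0.212). Cox6a1 and Cox5a lay above NP in every HAMSA library. Cox6a1 stood at 80.1, 88.3, 81.0 and 93.3 CPM in NP and at 104, 182, 175 and 103 in HAMSA, a fold change of 0.72 ± 0.23 (edgeR's adjusted p = 0.0900).

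The scarce forms varied most in relative terms. Cox6b2 stood at 2.09, 2.52, 1.81 and 1.21 CPM in NP, at 2.53, 2.76, 1.84 and 1.94 in HAMS, at 3.41, 5.32, 7.06 and 2.23 in HAMSA and at 2.77, 3.46, 1.74 and 2.29 in HAMSB. HAMSA 6 overlapped NP, and the fold change of HAMSA against NP was 1.23 ± 0.33, with the smallest adjusted p of the 82 genes in any pair of diets (edgeR's adjusted p = 0.0618). Against HAMS it was 0.98 ± 0.33 (edgeR's adjusted p = 0.320).

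Cox6a2 had 4, 6, 3 and 3 reads in NP, 9, 5, 11 and 2 in HAMS, 5, 6, 6 and 12 in HAMSA and 17, 39, 14 and 11 in HAMSB. On the CPM scale every HAMSB library (0.237 to 0.900) and every HAMSA library (0.161 to 0.763) lay above every NP library (0.0700 to 0.148). The fitted fold changes were 2.19 ± 0.56 for HAMSB and 1.89 ± 0.61 for HAMSA against NP (edgeR's adjusted p = 0.231 and 0.0923). It was the gene with the smallest p of the set in the any-diet test (edgeR's adjusted p = 0.0890). With so few reads in NP, the fold changes are imprecise. Cox6a2 passed the count filter only through libraries of diets other than NP. Its values against NP and in the any-diet test are therefore no support.

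In complex V, Atp5b (chr10:128083273-128090391, plus strand) stood at 514, 495, 498 and 537 CPM in NP and at 618, 700, 522 and 552 in HAMS. It stood at 615, 690, 607 and 612 CPM in HAMSA and at 621, 604, 432 and 524 in HAMSB. All HAMSA libraries lay above all NP libraries, with a fold change of 0.30 ± 0.12 (edgeR's adjusted p = 0.139), and HAMS 5 overlapped NP. Atp5d, the delta subunit of the rotor, stood at 122, 138, 135 and 144 CPM in NP and at 164, 249, 259 and 155 in HAMSA, a fold change of 0.61 ± 0.20 (edgeR's adjusted p = 0.0944). Atp5h, a subunit of the stator stalk, ran from 53.1 to 58.1 CPM in NP and from 59.0 to 88.8 in HAMSA, without overlap, a fold change of 0.42 ± 0.16 (edgeR's adjusted p = 0.138).

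Atp5sl was carried into the set by its symbol and is known as an assembly factor of complex I rather than an ATP synthase subunit. It stood at 74.1, 89.4, 90.2 and 89.2 CPM in NP and at 76.8, 72.8, 62.1 and 68.6 in HAMS. It stood at 77.0, 79.9, 96.3 and 71.5 CPM in HAMSA and at 82.6, 82.1, 90.7 and 92.4 in HAMSB. It was lower in HAMS than in HAMSB in every library, opposite to most of the set, with a fold change of 0.31 ± 0.10 for HAMSB against HAMS (edgeR's adjusted p = 0.164). Against NP, HAMS gave −0.29 ± 0.10 (edgeR's adjusted p = 0.122), with overlap at NP 1.

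The library that was highest or lowest was the same for much of the set. HAMSB 5 was the lowest library for 67 of 82 genes (81.7%), against 16.2% of all genes tested, and HAMSA 2 the highest for 41 (50%), against 12.3%. HAMSA 3 was highest for 16 genes and HAMS 4 for 15. Without HAMSB 5 the median of HAMSB against HAMS went from −0.29 to −0.14 and that of HAMSA against HAMSB from 0.39 to 0.26. Without HAMSA 2 the median of HAMSA against HAMS was 0.02 and that of HAMSA against NP went from 0.36 to 0.23. Without HAMS 4 the median of HAMS against NP went from 0.23 to 0.12.

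The labels do not say what the number of a library stands for. The comparisons were repeated within the 10 libraries numbered 1 to 4 and within the 6 numbered 5 and 6. This split was chosen with earlier results known, in which levels moved with the number, so its counts describe these libraries and are no independent support. Numbers 1 to 4 leave out NP 5, the highest NP library, and HAMS 5, HAMS 6 and HAMSA 6, the lowest of their diets. The direction of the counts was therefore partly set by the split. Within numbers 1 to 4, 21 of the 82 genes passed the test as higher in HAMS than in NP and 45 as higher in HAMSA than in NP, and none as lower. Of all genes 5.55% and 9.83% passed as higher. The medians of the set were 0.52 and 0.48. Of the 21 genes, 20 (95.2%) were among the 45, and made up 44.4% of those.

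In HAMSA against NP within numbers 1 to 4 the genes called higher were 22 of 37 in complex I and 1 of 4 in complex II (Sdhd). They were 6 of 9 in complex III, 8 of 14 in complex IV and 8 of 17 in complex V (9.83% of all genes). As the split was chosen on the levels, fold changes are given as a description, without p-values. The log2 fold change there was 0.89 for Cox6a1 and 0.77 for Atp5d. Cox7a2l, which helps complexes III and IV join into supercomplexes, had 0.77. In HAMS against NP within the same numbers Cox7a2l had 0.80. Ndufa4, named for complex I and known as a subunit of complex IV, had 0.73 there.

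These counts rested on few libraries. Leaving out each of the 10 in turn gave 0 to 53 genes for HAMS against NP and 0 to 63 for HAMSA against NP. Counts over all genes, given in brackets below, moved widely too, from 46 to 2980 and from 40 to 5196. Both counts were 0 without NP 3 (157 and 188 of all genes) and without NP 4 (214 and 57). The first was 0 without HAMS 4 (46) and the second 0 without HAMSA 2 (40). HAMS against NP also gave 1 without HAMS 1 (312), 2 without HAMSB 1 (601) and 3 without HAMSB 2 (614). It gave 6 without NP 1 (919), 25 without HAMSA 2 (1082), 37 without HAMSA 3 (2321) and 53 without HAMSA 1 (2980). HAMSA against NP gave 8 without HAMSA 3 (1205), 15 without NP 1 (1405) and 63 without HAMSA 1 (5196). It gave 30 to 32 without HAMS 1, HAMS 4, HAMSB 1 or HAMSB 2 (1845 to 2078). The medians moved less, from 0.43 to 0.56 and from 0.38 to 0.64. HAMSB against NP had a median of 0.20 within numbers 1 to 4 and no call.

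Within numbers 5 and 6 there was 1 NP and 1 HAMSA library and 2 of each of the others, so the lone libraries were assumed to vary like the rest. No gene of the set was called there, which says little with 2 residual degrees of freedom. The medians were −0.11 for HAMS against NP, −0.02 for HAMSA against NP and −0.34 for HAMSB against NP. By contrast, HAMSB against HAMS had −0.32 within numbers 1 to 4 and −0.26 within 5 and 6, and HAMSA against HAMSB 0.32 and 0.31. HAMSA against HAMS had −0.01 and 0.11.

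The difference between the number classes was fitted after the levels had been seen to move with the number, and NP 5 is the only NP library of its class, so its values are a description and support nothing. None of the 82 genes passed the adjusted test for HAMS against NP (0.0999% of all genes), HAMSA against NP (0%) or HAMSB against NP (0.02%). At an unadjusted p under 0.05 there were 35 of 82 (17.8% of all genes), 7 (11.3%) and 24 (10.9%).

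The share of reads outside annotated exons ran against the level of the set in the libraries at the ends of its range. It was 9.76% in HAMSA 2, 11.1% in HAMS 4 and 11.2% in HAMSA 3, the 3 libraries with the highest summed CPM, and 16.9% in HAMSB 5, the lowest. In NP it was 13.95% to 15.5%. With this share as a covariate the median was −0.10 in HAMSA against HAMSB, −0.14 in HAMSA against NP, −0.21 in HAMSA against HAMS and 0.05 in HAMS against NP. It was −0.14 in HAMSB against HAMS. The 4 HAMSA libraries and HAMS 4 had the 5 lowest shares, so HAMSA and a low share cannot be fully told apart.

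**Figure D5:**
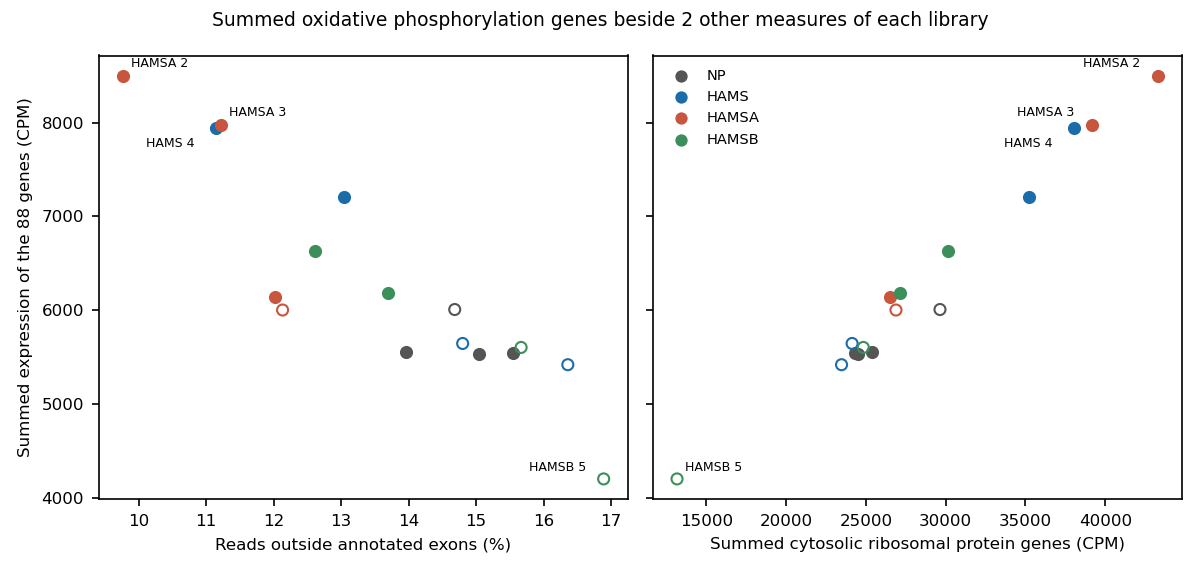
Summed CPM of the 88 genes in each of the 16 libraries against the share of reads outside annotated exons (left, %) and against the summed CPM of 80 cytosolic ribosomal protein genes (right). Filled points are libraries numbered 1 to 4 and open points those numbered 5 and 6. HAMSA 2 has the lowest share, 9.76%, and the highest sums, and HAMSB 5 the highest share, 16.9%, and the lowest sums.

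Fold changes were larger for short genes. The 41 tested genes of the set with up to 1737 bases of exon had a median of 0.49 in HAMSA against HAMSB and the 41 longer ones 0.25. Over all genes tested, the 3708 genes with the shortest exon length, up to 2082 bases, had 0.20 in that comparison and the 3706 longest −0.17. Among those 3708, the 50 genes of the set had a median of 0.48. The part of length and of the share outside exons in these results was not tested further.

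Markers of other cells differed between libraries too. Erythroid markers summed to 551 ± 668 CPM in NP and 96.1 ± 40.0 in HAMS (SD, n = 4). They summed to 3780 ± 3114 CPM in HAMSA and 622 ± 739 in HAMSB. All 14 tested erythroid markers were higher in HAMSA than in each other diet, with none called. By library they summed to 6547 CPM in HAMSA 2 and 6353 in HAMSA 6, where the summed CPM of the set was 8500 and 6004. In HAMSA 3 they summed to 579 CPM, with 7976 for the set, and in HAMS 4 to 128 CPM, with 7944. T cell markers summed to 200 to 240 CPM in NP, 182 to 358 in HAMS, 291 to 480 in HAMSA and 243 to 554 in HAMSB, and NK cell markers to at most 30.4, 38.3, 67.6 and 105. Of the 16 T cell markers all were higher in HAMSA than in NP and 1 was called, Lck (1.41% of all genes called). Of the 12 NK cell markers 11 were, and 1 was called, Ncr1 (1.41%). The 14 macrophage markers in the table summed to 418 ± 133 CPM in NP, 185 ± 58.5 in HAMS, 306 ± 82.0 in HAMSA and 253 ± 132 in HAMSB (SD, n = 4). Of these, 10 were called lower in HAMS than in NP (4.33% of all genes called in either direction). Among them were C1qc, Vcam1 and Spic (edgeR's adjusted p = 0.00562, 0.00623 and 0.00668). C1qc was also called lower in HAMSB than in NP (edgeR's adjusted p = 0.0409, 0.0732% of all genes called). The 13 neutrophil markers summed to 31.5 ± 31.7 CPM in NP and 50.2 ± 51.6 in HAMS. They summed to 206 ± 121 CPM in HAMSA and 143 ± 115 in HAMSB. Of these 1 was called, Elane, higher in HAMSA than in NP (1.41% of all genes called). The 10 platelet markers summed to 353 ± 70.7, 598 ± 167, 384 ± 105 and 364 ± 139 CPM and the 10 dendritic cell markers to 107 ± 27.0, 78.7 ± 26.5, 107 ± 17.2 and 96.4 ± 37.5 CPM in NP, HAMS, HAMSA and HAMSB, with none called. HAMSA 2, 3 and 6 also had the lowest depth, 15053965 to 17453528 counts. The part of these markers and of depth in the results was not tested.

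Other genes of the pathway had smaller medians in HAMSA against HAMSB. Of 44 tested assembly factors, which build the complexes, 31 were higher in HAMSA than in HAMSB with a median of 0.13 and none called. In HAMS against NP 1 of the 44 rose, where 4.33% of all genes were called in either direction: Cox20, a helper of complex IV assembly, from 23.2 ± 2.20 to 31.1 ± 1.80 CPM (SD, n = 4, fold change 0.42 ± 0.10, edgeR's adjusted p = 0.0271). The 18 genes of the tricarboxylic acid cycle had medians between −0.02 and 0.09 in the 6 comparisons, with none called. Of 19 regulators, Tfam, which packs and transcribes mitochondrial DNA, rose in HAMS against NP by 0.35 ± 0.09 (log2, 1 of 19 called, edgeR's adjusted p = 0.0436). That share is near the 4.33% of all genes called there, and no other regulator was called in any comparison.

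The 13 protein genes of the mitochondrial genome summed to 18614, 10327, 9937 and 16235 CPM in NP 1, 3, 4 and 5 and to 14109, 13000, 21620 and 16361 in HAMS 1, 4, 5 and 6. They summed to 14703, 10449, 8443 and 16490 CPM in HAMSA 1, 2, 3 and 6 and to 14390, 16786, 7952 and 14665 in HAMSB 1, 2, 5 and 6. HAMSB 5 was the lowest library here too, while HAMSA 2 and 3, the highest for the nuclear set, were the lowest of the HAMSA libraries. HAMSA was lower than HAMS for all 13, with a median of −0.32 and none called.

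Ribosomal protein genes lay on the same side as the set. The 75 tested genes of the mitochondrial ribosome had a median of 0.26 in HAMSA against HAMSB and 0.16 in HAMS against NP. In HAMS against NP 4 of the 75 rose, a share near the 4.33% of all genes called there, among them Mrpl50 by 0.40 ± 0.08 and Mrps6 by 1.01 ± 0.20 (edgeR's adjusted p = 0.00943 and 0.00978). In HAMSB against HAMS, where 1.68% of all genes were called, 2 fell, Mrps6 by 0.92 ± 0.20 and Mrps7 by 0.62 ± 0.14 (log2, edgeR's adjusted p = 0.0232 and 0.0298). The 78 tested genes of the cytosolic ribosome had medians of 0.43, 0.22 and −0.31 in HAMSA against HAMSB, HAMS against NP and HAMSB against HAMS, and 1 was called, Rps2 in HAMSA against HAMSB (0.85 ± 0.17, edgeR's adjusted p = 0.0266). Their sums ran from 13166 CPM in HAMSB 5 to 43302 CPM in HAMSA 2, the same lowest and highest libraries as for the set.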

How the data were processed

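STAR, Subread's featureCounts, edgeR and limma are named in the submitters' processing notes. For versions, genome build and annotation, nothing is given in the sources used here. The values deposited by the authors are whole counts of reads per gene, not normalized, and the deposited counting summary lists reads that mapped to several places, to overlapping genes or outside exons as unassigned. Counts of all 16 libraries were fitted with edgeR 4.0.16 in R 4.3.3 (1 mean per diet, TMM scaling, filterByExpr with a minimum count of 10, 12 residual degrees of freedom, quasi-likelihood F-test, Benjamini-Hochberg adjustment over 15021 genes, threshold 0.05). Libraries of the same diet had a biological coefficient of variation of 22.1%, and no 2 libraries agreed within sampling noise. Coordinates and exon lengths came from GENCODE M21 and promoters from RefSeq. Gene names were matched by identifier.

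The genes and lists were chosen with earlier results of these data known. Genes named are those with the smallest any-diet p or the highest level per length in each complex, all of complex II, Cycs, tissue forms, core subunits and, in the lists, called genes; Ndufb2, Ndufab1, Ndufs3, Ndufa5, Ndufb5, Cox7a2l in the number classes and other genes listed for groups without overlap were chosen after their values were seen. Identifiers not matched in the lists (Ndufaf8, Coa1, Sdhaf3, Sdhaf4, Uqcc3, Coa7, Fmc1, Twnk, Epb42 and Adgre1) were not analysed here. Of the genes in the set, 1 is counted in the totals but is not reported by name. Genes absent from the promoter table included Cox4i2, Ndufa2, Cox6c, Uqcrb, Ndufb9, Cyc1, Atp5a1, Ndufs1, Cox6a2, Uqcrc2, Cox4i1, Ndufa4l2, Cox8c, Uqcrq, Sdhc and Atp5l2. Alternatives were DESeq2 1.42.0, limma voom 3.58.1, RLE and unscaled totals, other filters, only the diets compared, the replicate number as a block, the outside-exon share as covariate, the number classes and each library left out. The test was run on simulated data. Same-numbered libraries had correlations of their deviations between −0.25 and 0.49, over 0.1 in 8 of 15 pairs. The median of these correlations was 0.19, against −0.06 over the 81 other pairs of libraries from different diets. Numbers were not taken as pairs in the main fit, and the block by number was run as an alternative.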

Additional observations from a re-analysis of the deposited data

Results flagged for a closer look

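Values far from the other 3 libraries of their diet were looked for in 104 groups of 4 with Dixon's gap test, and 6 stood out. Chance flags about 1 in 20 groups. NP 5 was the highest NP library for the summed CPM of the whole set, 6009, for complex III, 729.6, and for complex IV, 971.6. Atp5sl was lowest in NP 1 at 74.1 CPM, against 89.2 to 90.2 in the other NP libraries. Atp5b was highest in HAMSA 2 at 690.0 CPM, and Cox7a1 in HAMSA 3 at 0.533 CPM.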

How the results depend on the processing

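With edgeR, TMM scaling and 1 mean per diet over 16 libraries, 0 genes of the set were called in every comparison, and some alternatives called more. Counts over all 15021 genes are in brackets. With DESeq2 it was 6 (600) for HAMSA against HAMSB: Cox5a, Cox5b, Ndufa12, Ndufv2, Uqcrfs1 and Uqcrq. It was 4 (1295) for HAMSA against NP, 1 (1264) for HAMS against NP and 8 (1894) for any diet. Without HAMSA 6 it was 2 (194) for HAMSA against HAMSB, 1 (578) for HAMSA against NP and 1 (716) for any diet. Leaving out 1 library thus gave 0 to 2, 0 to 1 and 0 to 1 genes of the set. HAMS against NP gave 1 (798) with library totals and 1 (1157) with the share outside exons as a covariate. With libraries numbered 1 to 4, a split chosen with earlier results known, it was 21 (1328) for HAMS against NP. It was 45 (2652) for HAMSA against NP and 13 (1335) for any diet there. With the replicate block 1 gene, Ndufa12, was called in HAMSB against HAMS and for any diet (edgeR's adjusted p = 0.0321 and 0.0458). Over all genes 163 and 264 were called there, and the block changed no other call of the set. Only 2 of 16 libraries correlated best with a library of their own number.

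The median fold change became −0.21 in HAMSA against HAMS, −0.10 in HAMSA against HAMSB and −0.14 in HAMSA against NP with the covariate. That of HAMSA against HAMS was also below 0 with the replicate block (−0.014) and within numbers 1 to 4 (−0.010). Within numbers 1 to 4 that of HAMS against NP was 0.52, and within numbers 5 and 6 it was −0.11, with −0.024 for HAMSA against NP and −0.34 for HAMSB against NP. The cause was not tested. Leaving out 1 library kept the direction of each median but that of HAMSB against NP, which ran from −0.11 to 0.10. Of 565 values of 21 named fold changes, 541 kept direction and side of the threshold, 21 passed it and 3 reversed: Cox4i1 in HAMSA against HAMSB (−0.11) and Ndufv2 in HAMSA against NP (−0.029) with the covariate, and Atp5b in HAMS against NP (−0.0060) within numbers 5 and 6. Counts over all genes also moved: leaving out 1 library gave 123 to 270 for HAMSB against HAMS, 238 to 716 for HAMS against NP, 0 to 578 for HAMSA against NP and 13 to 194 for HAMSA against HAMSB.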
